A study of Mus musculus with 20 samples.

Results

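The sites described are CTCF-bound regions of mouse embryonic stem (ES) cells that appeared in TDG KO cells but not in wild type cells and that lie at a gene start or gene end. Peaks of 4 deposited CTCF ChIP-seq lists that shared 1 bp or more were merged into regions. A region was a member when it held a peak of each TDG KO list but none of a WT list, and when its centre lay within 1 kb of the start or end of a gene locus in the deposited expression table. This left 493 regions of 54729 merged regions, and they were 493 of the 5885 KO-only regions. The other KO-only regions lay inside genes (2713) or between genes (2679), and 3328 of the 32740 regions with a peak in all 4 lists lay at gene ends by the same measure. The members were thus chosen by peak presence in the 4 lists and by position, and neither is tested below.

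All cells were of strain 129, kept on growth-arrested mouse embryonic fibroblast feeders in medium with serum and LIF, and the feeders were depleted by serial plating before use. The TDG KO group lacked thymine DNA glycosylase and had 2 CTCF lists and 2 mRNA libraries, and the WT group had the same numbers. Both lines were received as a gift. The labels do not say which allele carries the deletion, how many clones were used or whether each replicate was its own culture, and the spread behind each p-value may be technical. Line and genotype cannot be told apart.

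CTCF is a zinc finger protein that binds a long GC-rich motif, halts loop extrusion by cohesin and marks domain boundaries, and many of its sites lie at promoters. Binding at sites that hold CpG can depend on cytosine methylation. TET enzymes oxidise 5-methylcytosine in steps to 5-carboxylcytosine, and TDG removes the last oxidised forms by base excision, so cells without TDG keep more 5-carboxylcytosine. The study's title concerns how that base affects CTCF binding to weaker sequences.

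Promoter windows covered by the regions show what kind of DNA the members occupy at gene starts. Each RefSeq window (GRCm38.p6, the build named mm10) runs from 250 bases before to 50 bases after a start, 300 bases in all. Windows were searched on both strands for 4 CTCF core words of 7 letters, namely AGGGGGC, the word AGGTGGC, the word AGATGGC and the word AGAGGGC, and overlapping matches were kept. On the opposite strand a word reads as its reverse complement. Capitals below mark these matches, and all windows are written 5′ to 3′ along the gene. The first set holds the named genes whose window a member covered by at least 150 bases. They are Gm6938 (chrX:21334678-21334977, minus strand), Tslrn1, the RefSeq name of 1700019B21Rik (chrX:62526962-62527261, minus), Krt8 (chr15:102004293-102004592, minus) and Firre (chrX:50635272-50635571, minus).
Gm6938: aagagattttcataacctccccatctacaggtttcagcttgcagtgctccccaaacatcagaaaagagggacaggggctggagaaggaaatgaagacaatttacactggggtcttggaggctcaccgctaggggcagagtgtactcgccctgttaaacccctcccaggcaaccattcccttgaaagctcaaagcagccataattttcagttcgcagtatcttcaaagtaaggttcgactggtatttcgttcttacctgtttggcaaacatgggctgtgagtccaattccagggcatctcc
Tslrn1: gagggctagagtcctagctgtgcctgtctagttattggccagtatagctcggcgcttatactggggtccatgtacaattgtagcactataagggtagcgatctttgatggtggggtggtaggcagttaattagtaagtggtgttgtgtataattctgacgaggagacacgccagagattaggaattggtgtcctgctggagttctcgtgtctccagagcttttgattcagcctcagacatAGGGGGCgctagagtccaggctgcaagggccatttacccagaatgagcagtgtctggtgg
Krt8: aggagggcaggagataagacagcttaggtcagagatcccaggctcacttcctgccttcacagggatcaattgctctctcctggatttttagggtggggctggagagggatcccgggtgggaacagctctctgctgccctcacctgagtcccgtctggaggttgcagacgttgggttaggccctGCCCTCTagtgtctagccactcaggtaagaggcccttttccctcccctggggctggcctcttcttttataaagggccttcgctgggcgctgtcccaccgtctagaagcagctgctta
Firre: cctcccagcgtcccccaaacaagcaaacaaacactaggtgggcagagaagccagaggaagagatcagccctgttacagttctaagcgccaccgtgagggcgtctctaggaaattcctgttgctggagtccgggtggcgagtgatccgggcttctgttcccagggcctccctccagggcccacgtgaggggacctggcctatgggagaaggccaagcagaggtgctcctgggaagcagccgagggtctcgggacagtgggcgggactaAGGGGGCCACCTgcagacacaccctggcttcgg

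The region at Tslrn1 covered 174 of the 300 bases, from base 127 to the window's end, and the AGGGGGC match lay within them. At Krt8 the region covered 269 bases, with its match inside, which is AGAGGGC read on the opposite strand. The Firre region covered the first 199 bases, and the run in which AGGGGGC overlaps an opposite-strand AGGTGGC lay outside it, next to the start. The Gm6938 window held none of the 4 words, although its region covered 267 of its bases. The observed over expected CpG ratio was 0.282 at Gm6938, 0.398 at Tslrn1, 0.238 at Krt8 and 0.41 at Firre. All 4 ratios lay below 0.6, a usual limit for a CpG island. The median over all promoter windows was 0.384, so Tslrn1 and Firre lay slightly above it.

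A second set was chosen after its values were seen. It holds further genes with a covered window and an RNA change of at least 0.7 in either direction on the log2 scale, namely Bcl2l13 (chr6:120835980-120836279, plus strand), Boll (chr1:55363704-55364003, minus), Ezh1 (chr11:101226414-101226713, minus), Gramd2 (chr9:59679583-59679882, plus) and Shisa2 (chr14:59625031-59625330, plus). It shows that covered starts of genes with changed RNA ranged from CpG-rich to CpG-poor.
Bcl2l13: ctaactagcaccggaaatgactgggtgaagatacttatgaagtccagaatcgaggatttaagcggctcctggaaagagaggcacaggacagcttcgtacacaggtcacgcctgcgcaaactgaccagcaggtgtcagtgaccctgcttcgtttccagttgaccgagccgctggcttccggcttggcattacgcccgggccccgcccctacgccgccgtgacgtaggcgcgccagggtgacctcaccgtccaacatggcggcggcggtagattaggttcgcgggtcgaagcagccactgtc
Boll: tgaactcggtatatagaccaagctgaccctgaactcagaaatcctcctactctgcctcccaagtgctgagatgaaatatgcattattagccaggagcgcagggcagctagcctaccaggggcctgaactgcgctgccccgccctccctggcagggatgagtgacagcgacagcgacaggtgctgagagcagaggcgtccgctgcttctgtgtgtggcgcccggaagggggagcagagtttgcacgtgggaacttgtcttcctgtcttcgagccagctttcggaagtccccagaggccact
Ezh1: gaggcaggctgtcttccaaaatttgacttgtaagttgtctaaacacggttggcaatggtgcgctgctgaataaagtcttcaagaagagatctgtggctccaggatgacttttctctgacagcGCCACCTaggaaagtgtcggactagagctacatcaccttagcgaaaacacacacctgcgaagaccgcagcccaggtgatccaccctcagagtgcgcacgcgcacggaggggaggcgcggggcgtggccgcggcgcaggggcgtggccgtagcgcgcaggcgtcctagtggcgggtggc
Gramd2: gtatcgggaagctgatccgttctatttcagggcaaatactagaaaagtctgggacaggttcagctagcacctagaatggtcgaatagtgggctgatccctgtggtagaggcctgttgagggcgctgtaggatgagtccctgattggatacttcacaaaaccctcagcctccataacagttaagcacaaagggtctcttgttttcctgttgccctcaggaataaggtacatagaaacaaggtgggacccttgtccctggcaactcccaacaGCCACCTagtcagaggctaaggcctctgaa
Shisa2: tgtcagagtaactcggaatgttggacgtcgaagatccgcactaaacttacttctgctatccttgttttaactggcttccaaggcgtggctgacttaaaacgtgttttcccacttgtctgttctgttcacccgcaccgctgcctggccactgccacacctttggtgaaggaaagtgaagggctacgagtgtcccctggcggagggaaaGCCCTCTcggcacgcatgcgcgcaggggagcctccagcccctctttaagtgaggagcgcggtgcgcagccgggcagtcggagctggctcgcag

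The CpG ratio was 0.952 at Bcl2l13, 0.882 at Ezh1 and 0.793 at Shisa2, against 0.504 at Boll and 0.214 at Gramd2. Ezh1 and Shisa2 each had a word inside the covered bases, the Gramd2 word lay outside them, and Bcl2l13 and Boll had none. A match is only a run of letters and does not show where CTCF was bound.

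In all, 74 members covered some part of a promoter window, and 43 covered at least 150 bases of 45 windows of 43 genes. Any of the 4 words stood in 31 of the 45 windows (68.9%, exact 95% interval 53.4 to 81.8%), in 68.3% of the 773 windows covered in the same way by regions of all 4 lists, and in 27.6% of all 32851 windows. The word AGGGGGC stood in 37.8% of the member windows, 37.4% of the shared-region windows and 10.6% of all windows. For AGGTGGC the shares were 15.6%, 14.4% and 6.15% in the same order, and for AGAGGGC 20.0%, 20.6% and 8.32%. AGATGGC stood in 1 of the 45 member windows (2.22%), in 10.9% of the shared-region windows and in 6.4% of all windows. In 22 of the 45 windows a word lay inside the covered bases. Among windows with a GC content of 55 to 65%, 13 of 20 member windows (65.0%), 68.4% of shared-region windows and 36.1% of all windows held a word.

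Member windows had a median GC content of 60.3%, against 61.7% for shared-region windows and 52.7% for all windows. Their median CpG ratio was 0.624 (quartiles 0.41 and 0.856), against 0.754 and 0.384. A ratio of at least 0.6, a usual limit for a CpG island, was reached by 23 of the 45 member windows (51.1%, 35.8 to 66.3%), by 72.7% of shared-region windows (69.4 to 75.8%) and by 35.8% of all windows. Among windows with a GC content of 55 to 65%, the ratio was reached by 50.0% of the 20 member windows (27.2 to 72.8%), 71.6% of shared-region windows (66.5 to 76.4%) and 53.2% of all windows, and there the members' interval overlaps both others. All intervals cover counting error only, and windows of neighbouring starts can share bases.

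Gene ends took 8.38% of the KO-only regions (7.68 to 9.11%), against 10.2% of the regions in all 4 lists (9.84 to 10.5%). The 93 WT-only regions had 5 at gene ends (5.38%, 1.77 to 12.1%). The locus column of the deposited table gives 1 span to overlapping genes, and 20115 of its 46939 genes (42.9%) shared their span with another. For 398 members (80.7%) a RefSeq gene start or end also lay within 1 kb, and for 95 (19.3%) none did. RefSeq ends alone would give 675 KO-only regions (11.5%), against 14.7% of the shared regions. Without WT list 1 the locus ends gave 9.66% of KO-only and 9.93% of shared regions, a gap smaller than with all 4 lists.

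**Figure D1:**
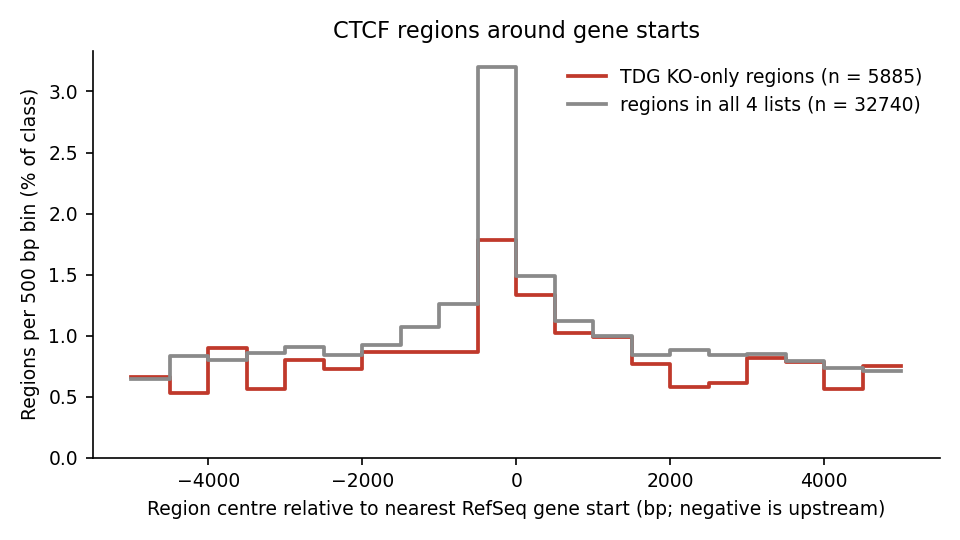
Share of each class of CTCF region (y axis, % of the class per 500 bp bin) by distance from a gene start (x axis, bp, negative upstream). TDG KO-only regions are red and regions in all 4 lists grey. Distance runs from the region's centre to the nearest start that has a RefSeq promoter window. Starts of genes without such a window are missed. In the bin just upstream of the start the KO-only share was 1.78% and the shared one 3.2%.

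Of the 398 members with a RefSeq end, 173 (43.5%) lay at a gene start and 100 (25.1%) at a 3′ end, with 19 at both. A further 144 lay at a gene with no strand in the promoter table. Of the 2776 shared regions with a RefSeq end, 48.1% lay at a start and 29.0% at a 3′ end. In the plot of distances from gene starts that have a promoter window, the 500 bp just upstream held 105 KO-only regions (1.78%), against 1048 shared regions (3.2%). Starts of genes without a window were not counted, so both shares can miss regions at gene starts. The nearest RefSeq gene was protein-coding for 280 members, a pseudogene for 49, a long noncoding RNA for 28 and a small nucleolar RNA for 21. An antigen receptor V segment was nearest for 6, and a microRNA for 4.

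Member peaks were weak within their own lists. Each peak was placed by the percentile of its deposited score in its list, where 100 is the highest score. The median percentile of members was 17.6 in TDG KO list 1 (quartiles 8.84 and 27.4) and 17.9 in TDG KO list 2 (9.44 and 26.5). KO-only regions inside genes had medians of 17.7 and 16.9, and those between genes 18.6 and 18.8. Regions of all 4 lists at gene ends had medians of 71.2 and 70.9 in the same TDG KO lists. Absence from the WT lists helped to choose the members, so this gap is a description. Only 7 members in list 1 and 6 in list 2 stood above the 50th percentile, and 141 and 135 stood below the 10th.

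**Figure D2:**
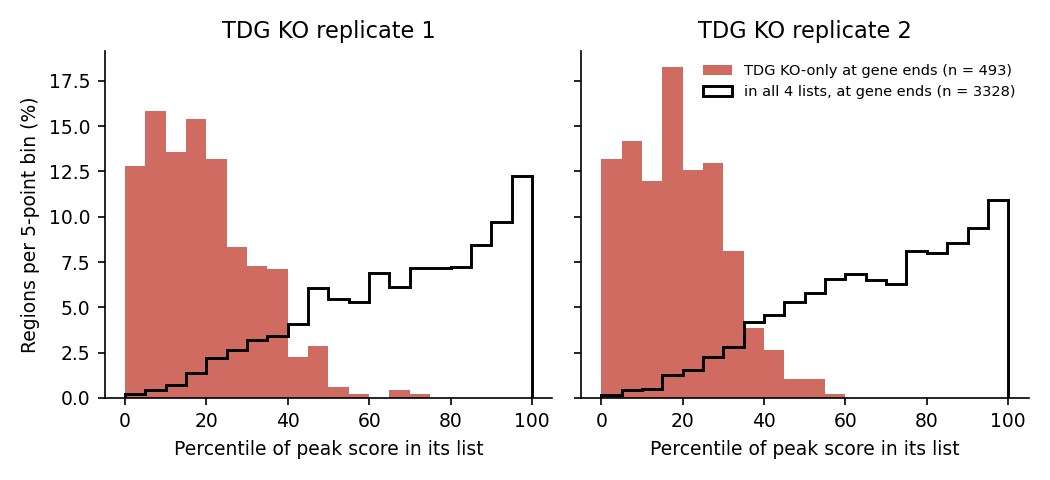
Percentile of the peak score within each TDG KO list (x axis) against the share of regions per 5-point bin (y axis, %), filled red for the 493 TDG KO-only regions at gene ends and outlined black for the 3328 regions of all 4 lists at gene ends. Members gather at the low end of both lists, with medians of 17.6 and 17.9.

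The peaks were also narrow, with median widths of 214 and 200 bp in the TDG KO lists, against 345 and 325 bp for shared regions at gene ends. Across members, scores in the TDG KO lists had a Spearman correlation of 0.503, against 0.865 across shared regions at gene ends. These are correlations across regions that share libraries and peak calls, and members span a narrower range of scores. The nearest shared region lay a median of 13091 bp away from a member, and 134 members (27.2%) had one within 5 kb. For KO-only regions inside genes that share was 22.8%, and between genes 20.8%.

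The TDG KO lists held 48514 and 48833 peaks, and the WT lists 38303 and 37099. When each list was reduced to an equal number of its strongest peaks, 102 KO-only and 75 WT-only regions lay at gene ends, in place of 493 and 5. Of the 102, 96 overlapped a member, and 31 (30.4%) lay on chromosome 11. Leaving out TDG KO list 1 or 2 gave 830 or 781 members, and leaving out WT list 1 gave 865. The part of peak calling, peak number and depth in membership was not tested. The depth of the CTCF libraries is unknown.

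The 6 members with the highest lower percentile over both TDG KO lists lay on chromosomes 8, 11, 12, 16 and X. The region at Wap (chr11:6636151-6636569), which encodes whey acidic protein of milk, stood at percentiles 70.3 and 54.0 and lay 878 bp from the gene's 3′ end. The region at Gm12250 (chr11:58186957-58187232) stood at 65.1 and 52.8, and that at the immunoglobulin heavy chain V segment Ighv1-52 (chr12:115146556-115146847) at 65.9 and 51.0. A region 19 bp from an end of the pseudogene Gm25276 (chr16:13531363-13531702) had 47.4 and 54.7. The small nucleolar RNA gene Gm24375 (chr8:56521068-56521443) had 46.1 and 58.2, and the noncoding Gm6938 (chrX:21334711-21334988), whose promoter is printed above, had 46.1 and 45.2. At the distance limit, the members nearest to it lay 997.5 bp from the ends of Crx (20.6 and 22.0) and Myadml2 (15.8 and 28.0). The first KO-only regions beyond it lay 1008.5 bp from Rhbdl3 (33.9 and 26.3) and 1009.0 bp from Gm14262 (36.2 and 21.5).

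Members were unevenly spread over chromosomes. Chromosome 11 held 83 of them (16.8%), against 8.38% of the shared regions at gene ends. Chromosome 6 held 39 (7.91%, against 5.14%), chromosome 16 held 22 (4.46%, against 2.31%), the X held 27 (5.48%, against 1.47%) and the Y held 7 (1.42%, against no shared region). Of the KO-only regions away from gene ends, 15.0% lay on chromosome 11, 6.44% on chromosome 6 and 4.25% on chromosome 16. The X held 3.56% of them and the Y 0.111%. Chromosome 11 took 9.36% and 7.74% of all peaks in the TDG KO lists, against 6.32% and 7.21% in the WT lists. The X took 2.38% and 2.58% in the TDG KO lists, against 3.92% and 2.6% in the WT lists, where WT list 1 stood apart. Chromosome copy number was not measured, and its part in these shares was not tested.

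**Figure D3:**
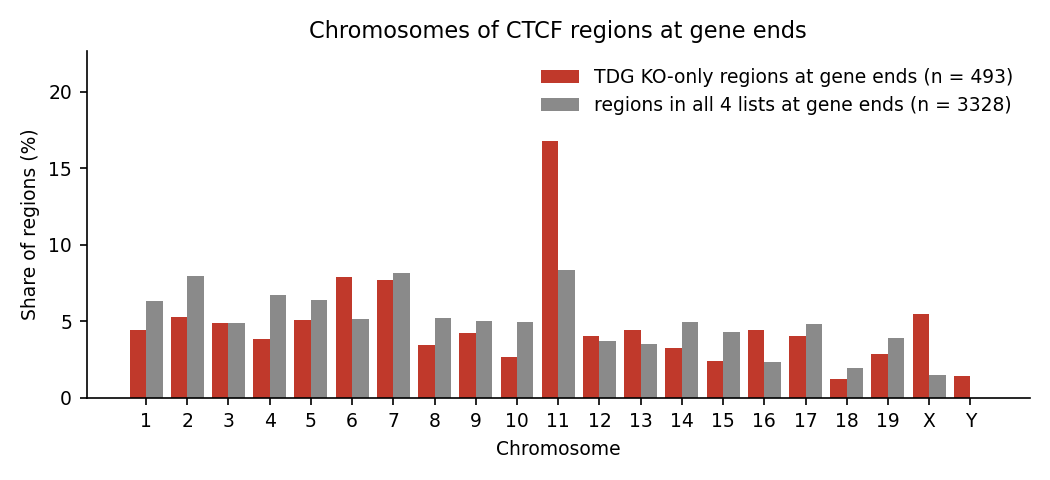
Share of regions at gene ends (y axis, %) on each chromosome (x axis), with TDG KO-only regions as red bars on the left and regions of all 4 lists as grey bars on the right. Chromosome 11 holds 16.8% of the KO-only regions and 8.38% of the others.

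RNA-seq was not used to choose the members, and it was read at their genes. RNA is given as FPKM, a level scaled for transcript length and library size, and changes as differences of log2(FPKM + 1), TDG KO minus WT, which understates the change of low genes. As a check of the labels, Tdg itself had 5.5 and 4.74 FPKM in TDG KO libraries, against 28.1 and 30.4 FPKM in WT libraries (log2 change -2.31, SE 0.0866, limma adjusted p = 9.21e-06). Ctcf had 42.4 and 41.1 FPKM in TDG KO libraries, against 48.8 and 52.5 FPKM in WT libraries (-0.27, limma adjusted p = 0.0118). That call was lost without WT replicate 2 (limma adjusted p = 0.0847) or TDG KO replicate 2 (0.0597). All 10 ES cell markers and all 12 fibroblast markers were detected. The summed ES cell markers were 6410 and 6600 FPKM in TDG KO libraries, against 8230 and 9050 FPKM in WT libraries. Their median went the other way, with 333 and 335 FPKM in TDG KO libraries, against 299 and 313 FPKM in WT libraries. The summed fibroblast markers were 612 and 671 FPKM in TDG KO libraries, against 805 and 604 FPKM in WT libraries, with each of the 12 above its WT replicate 2 level in WT replicate 1. Their part in the RNA results was not tested.

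A RefSeq start or end within 1 kb linked 425 genes of the table to members. Of these, 195 (45.9%) had a mean of at least 1 FPKM and were tested, against 25.6% of all genes. A level of 0 in every library was listed for 103 (24.2%), against 48.6% of all genes. Only genes matched to RefSeq (35097 of 46939) could be linked, whereas the shares of all genes include unmatched ones, so the sets are unlike. When 812 genes were linked through the locus column instead, 33.3% were tested and 38.2% were listed at 0. Among protein-coding genes, 190 of 312 at members (60.9%) were tested, against 70.3% at shared regions at gene ends and 53.8% of all. Of the 195 tested genes, 64 (32.8%) rose and 47 (24.1%) fell in TDG KO cells at a limma adjusted p under 0.05, and 84 were not called. Fewer genes were called in each direction when 1 library was left out, both at members and over all tested genes. Over all 12035 tested genes the same rule called 24.4% higher and 29.5% lower. The median change was 0.03 at members and -0.04 over all tested genes. TDG KO and WT libraries did not overlap for 151 of the 195 genes (77.4%), against 78.8% of all tested genes.

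The share called higher differed between chromosomes. On chromosomes 6, 11, X and Y, which were singled out with these data known, 37 of 63 tested genes at members rose (58.7%) and 6 fell (9.52%), against 47.7% and 18.4% of all tested genes there. On the other chromosomes, 27 of 132 rose (20.5%) and 41 fell (31.1%), against 19.7% and 31.8% of all tested genes there. The 4 chromosomes differed among themselves, and chromosome 11 gave 46 of the 63 genes at members but 1028 of all 2041 tested genes there. Of all tested genes, 26.5% rose and 39.0% fell on the X, and 31.7% rose and 26.2% fell on chromosome 6. Members had few tested genes there, 3 higher and 1 lower of 6 on the X and 4 higher and 2 lower of 11 on chromosome 6. On chromosome 11 alone, 30 of 46 rose (65.2%), against 65.6% of its 1028 tested genes, and the median change was 0.39 at members and 0.37 over the chromosome. Outside those 4 chromosomes, then, and on chromosome 11, the shares at members lay near the background. The median change outside the 4 chromosomes was -0.04 at members and -0.08 over all tested genes there. At the 102 regions of the strongest peaks, 20 of 35 tested genes rose (57.1%) and 4 fell (11.4%), and on chromosome 11 the counts were 14 higher and 0 lower of 20.

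**Figure D4:**
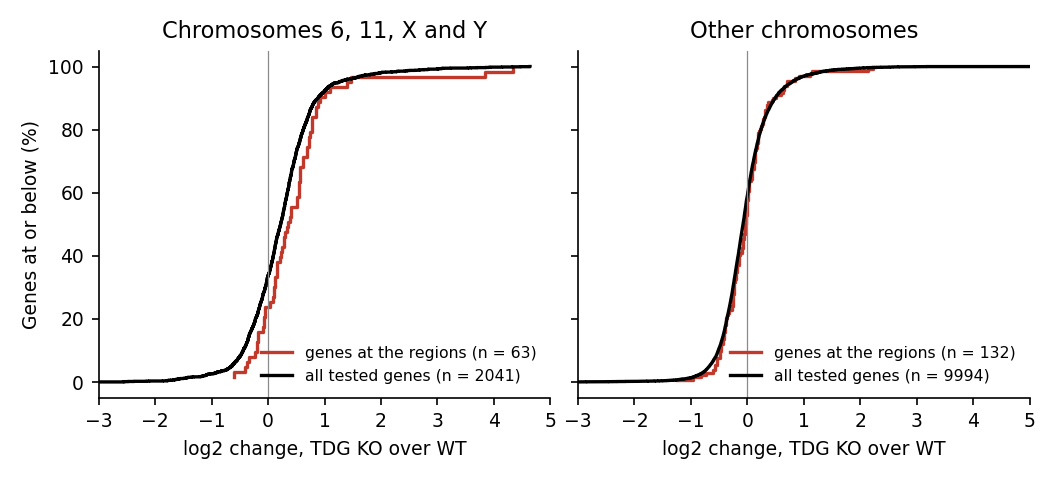
Cumulative share of genes (y axis, %) at or below a log2 change of TDG KO over WT (x axis), red for genes at TDG KO-only regions and black for all tested genes. On chromosomes 6, 11, X and Y (left) the red curve, with a median of 0.36, runs to the right of the black one, with 0.22. There chromosome 11 gives 46 of the 63 genes in red but 1028 of the 2041 in black. On other chromosomes (right) the curves nearly coincide (-0.04 and -0.08).

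Members at gene starts and at 3′ ends were also read apart. With the region at the start, 29 of 102 tested genes rose (28.4%) and 26 fell (25.5%), with a median change of 0.01. With the region at the 3′ end, 25 of 55 rose (45.5%) and 10 fell (18.2%), with a median of 0.19, against 24.4% and 29.5% of all tested genes. Outside chromosomes 6, 11, X and Y 18.1% of 72 rose and 30.6% fell at starts (median -0.02), and 31.4% of 35 rose and 28.6% fell at 3′ ends (median 0.0), against 19.7% and 31.8% of all tested genes there. The difference between ends was not tested.

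A change of at least 1 on the log2 scale was called upward for 10 of the 195 genes, against 3.61% of all tested genes, and downward for 1, against 1.30%. The largest change on this scale was that of Rhox5, a homeobox gene of the X-linked reproductive cluster. It had 513 and 541 FPKM in TDG KO libraries, against 23.1 and 27.6 FPKM in WT libraries. The log2 change was 4.33 (SE 0.0909, limma adjusted p = 1.91e-06). The region at Rhox5 lay 728 bp from the 3′ end, at percentiles 28.6 and 10.7. Rhox5 and the other genes of the largest rises and falls were chosen among called genes whose groups do not overlap. Their separate groups are therefore no result, and 78.8% of all tested genes had groups that do not overlap.

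The noncoding X-linked 1700019B21Rik had 17.1 and 21.2 FPKM in TDG KO libraries, against 0.266 and 0.52 FPKM in WT libraries (3.85, SE 0.134, limma adjusted p = 7.23e-06). Both TDG KO values exceed both WT values by a wide margin, and with a pseudocount of 0.1 its change was larger than that of Rhox5 (5.32 against 4.38). It had 2 members, one centred 2 bp from its start (percentiles 33.0 and 28.8) and one 755 bp from it (25.5 and 34.9).

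Bst2 encodes tetherin, an interferon-induced membrane protein that holds back enveloped viruses. It had 90.9 and 98.0 FPKM in TDG KO libraries, against 19.3 and 19.7 FPKM in WT libraries (2.22, SE 0.0643, limma adjusted p = 3.93e-06), with a region 176 bp from its 3′ end. Krt8, a keratin of simple epithelia, had 45.3 and 44.7 FPKM in TDG KO libraries, against 10.5 and 8.43 FPKM in WT libraries (2.14, SE 0.0979, limma adjusted p = 1.82e-05). Its region lay 106 bp from the start, over the promoter printed above. In both genes the groups were apart, as the choice of genes required.

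Tnfaip1, an adaptor of a ubiquitin ligase, and Poldip2, whose product binds DNA polymerase delta, converge on chromosome 11 and share 1 region at their 3′ ends (chr11:78522441-78522970). Tnfaip1 had 25.6 and 25.4 FPKM in TDG KO libraries, against 9.4 and 8.84 FPKM in WT libraries (1.39, limma adjusted p = 2.19e-05). Poldip2 had 83.5 and 86.6 FPKM in TDG KO libraries, against 38.6 and 40.1 FPKM in WT libraries (1.09, limma adjusted p = 3.6e-05). The 2 genes are thus not independent cases. Igsf9, an immunoglobulin superfamily adhesion protein, had 7.87 and 8.06 FPKM in TDG KO libraries, against 3.17 and 3.17 FPKM in WT libraries (1.1, limma adjusted p = 9.72e-05), with a region 980 bp from its 3′ end. That region lay nearer to the start of Tagln2, at 388 bp.

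**Figure D5:**
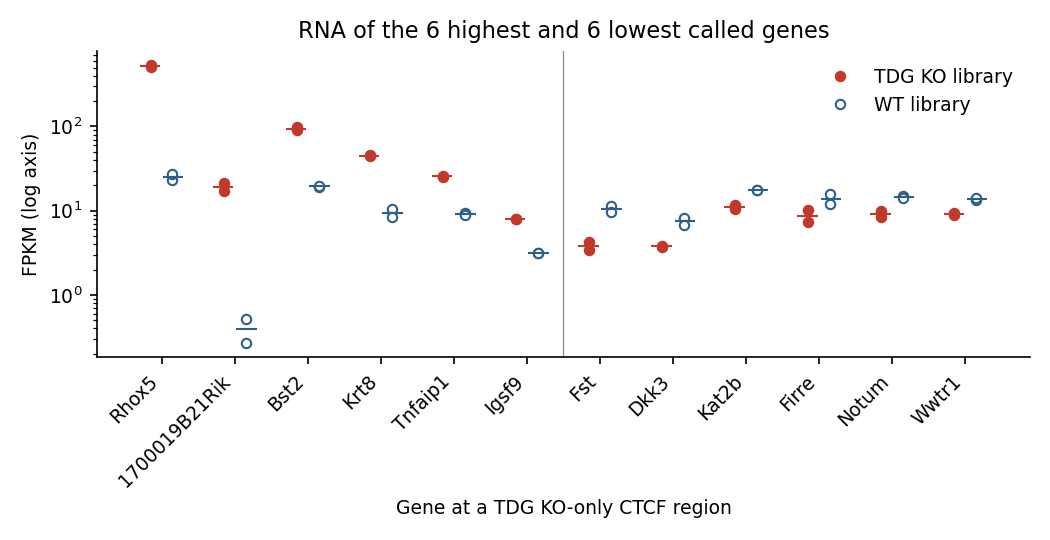
FPKM on a log axis (y axis) in each library for the 6 genes at members with the largest called rises (left of the line) and the 6 with the largest called falls (right), among genes with a mean of at least 5 FPKM whose groups do not overlap. Filled red points are TDG KO libraries, open blue points WT libraries, and bars group means. Rhox5 stands at 513 and 541 FPKM in TDG KO libraries and at 23.1 and 27.6 FPKM in WT libraries.

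The largest fall among genes with a mean of at least 5 FPKM was that of Fst, which encodes follistatin, a secreted inhibitor of activin. It had 3.44 and 4.26 FPKM in TDG KO libraries, against 11.5 and 9.58 FPKM in WT libraries (-1.25, SE 0.119, limma adjusted p = 0.000308). Dkk3, a secreted protein of the Dickkopf family, had 3.7 and 3.86 FPKM in TDG KO libraries, against 8.28 and 6.75 FPKM in WT libraries (-0.83, limma adjusted p = 0.000929). In both genes each TDG KO value lay below each WT value, as the choice of genes required. Both genes had weak regions in TDG KO list 1, at percentiles 1.91 and 0.901. So had Brdt, which rose (1.17), and 141 of the 493 members stood below the 10th percentile in that list.

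Kat2b encodes a histone acetyltransferase. It had 11.8 and 10.5 FPKM in TDG KO libraries, against 17.5 and 17.7 FPKM in WT libraries (-0.61, limma adjusted p = 0.000847), with a region 228 bp from its start. Notum, which encodes an enzyme that removes the lipid of Wnt proteins, had 8.43 and 9.93 FPKM in TDG KO libraries, against 14.8 and 14.0 FPKM in WT libraries (-0.6, limma adjusted p = 0.00182). The region at Notum is the one also counted at Myadml2. Wwtr1, the Hippo pathway coactivator TAZ, had 9.34 and 9.0 FPKM in TDG KO libraries, against 13.4 and 14.1 FPKM in WT libraries (-0.53, limma adjusted p = 0.00106). The groups were apart in all 3 genes, as the choice of genes required.

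Firre, a long noncoding RNA of the X chromosome whose locus is known to bind CTCF, had 10.1 and 7.36 FPKM in TDG KO libraries, against 15.7 and 11.9 FPKM in WT libraries (-0.61, SE 0.163, limma adjusted p = 0.0185). Its groups did not overlap, as the choice of genes required, but its SE was the largest of the 12 genes plotted. The call was lost without WT replicate 1 (limma adjusted p = 0.0937), without TDG KO replicate 2 (0.137) and with no filter on FPKM (0.0975).

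The genes of the second set of printed promoters, chosen after their values were seen, changed as follows. Ezh1, a catalytic subunit of Polycomb complex PRC2, had 12.5 and 11.5 FPKM in TDG KO libraries, against 6.22 and 6.24 FPKM in WT libraries (0.85, limma adjusted p = 0.000246). Bcl2l13, a mitochondrial outer membrane protein, had 22.8 and 22.9 FPKM in TDG KO libraries, against 11.2 and 10.6 FPKM in WT libraries (1.01, limma adjusted p = 6.98e-05). Both lie on the chromosomes where most called genes were higher. Boll, a germ cell RNA-binding protein of the DAZ family, had 2.13 and 2.68 FPKM in TDG KO libraries, against 0.977 and 0.806 FPKM in WT libraries (0.84, limma adjusted p = 0.00156). Gramd2 had 2.78 and 3.1 FPKM in TDG KO libraries, against 1.37 and 1.46 FPKM in WT libraries (0.7, limma adjusted p = 0.00138). Its region is also the one at the 3′ end of Pkm. Shisa2, which restrains the maturation of Wnt and FGF receptors, had 1.59 and 1.7 FPKM in TDG KO libraries, against 3.17 and 3.61 FPKM in WT libraries (-0.73, limma adjusted p = 0.00124).

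Genes with more than 1 member at their ends were few. Besides 1700019B21Rik they were Aifm3, with 1.99 and 2.32 FPKM in TDG KO libraries against 1.32 and 1.11 FPKM in WT libraries (0.51, limma adjusted p = 0.00809), and Abcd4, Ccnjl, Cebpd and Shroom1. Abcd4, a transporter of lysosomes, had 10.4 and 10.1 FPKM in TDG KO libraries, against 8.99 and 8.99 FPKM in WT libraries (0.17, limma adjusted p = 0.0677). It passed the threshold with upper-quartile scaling (limma adjusted p = 0.0449). Ccnjl was not called (-0.19, limma adjusted p = 0.188), and Cebpd and Shroom1 were under the FPKM limit for a test. A member counted at Aifm3 had the start of Lztr1 as its nearest gene end, at 149 bp. Likewise, a member counted at Cebpd was nearest to an end of Spidr, at 87 bp.

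Several gene groups of interest in ES cells had no member at any end. These were 22 methylation and demethylation genes, 23 CTCF and cohesin genes, 28 pluripotency genes, 45 imprinted genes and 58 clustered protocadherins, of which 23 had a shared region at an end. Over all genes, 1.21% of those matched to RefSeq had a member, and at that share a list of this size can hold none.

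Germline genes had 2 of 31 with a member, Rhox5 and Brdt, and 19 of the 27 tested germline genes rose while 6 fell (24.4% and 29.5% over all tested genes). Brdt, a testis bromodomain protein, had 3.45 and 2.6 FPKM in TDG KO libraries, against 0.617 and 1.03 FPKM in WT libraries (1.14, SE 0.155, limma adjusted p = 0.00124), with a region 416 bp from its 3′ end. Among 209 developmental transcription factors Tbx2 and Foxj1 had a member (0.957%, against 1.21% of all matched genes). Both were below the FPKM limit for a test. A shared region was found at 22 of the 209.

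Of 397 zinc finger genes, 5 had a member (Zfp692, Zfp704, Zfp773, Zfp809 and Zfp830) and 41 had a shared region. Zfp809, a silencer of retroviral DNA in ES cells, had 8.84 and 7.41 FPKM in TDG KO libraries, against 9.11 and 7.54 FPKM in WT libraries (-0.03, limma adjusted p = 0.833). Its groups overlap, and its sign changed between alternatives. Zfp704 had 6.32 and 7.01 FPKM in TDG KO libraries, against 9.82 and 9.74 FPKM in WT libraries (-0.49, limma adjusted p = 0.00232). Zfp773 was below the limit for a test. Over the list, 28 of 309 tested genes rose and 133 fell, against 24.4% and 29.5% of all tested genes.

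Ribosomal protein genes had 3 of 91 with a member, and 28 had a shared region. Of the 88 tested, 9 rose and 44 fell, with a median change of -0.25, against 24.4%, 29.5% and a median of -0.04 over all tested genes. Rps19 had 1680 and 1870 FPKM in TDG KO libraries, against 2230 and 2290 FPKM in WT libraries (-0.35, limma adjusted p = 0.0172). Rpl19, on chromosome 11, had 3840 and 4140 FPKM in TDG KO libraries, against 3280 and 3260 FPKM in WT libraries (0.28, limma adjusted p = 0.0401). Both calls were lost when 1 WT library was left out, with limma adjusted p of 0.176 and 0.22 for Rps19 and 0.372 and 0.39 for Rpl19. With no filter on FPKM they were lost as well (0.099 for Rps19 and 0.214 for Rpl19), and that of Rpl19 also without TDG KO replicate 2 (0.0597). Rpl23a was not called (0.15, limma adjusted p = 0.208). Pkm, which encodes pyruvate kinase, was the 1 glycolysis gene of 21 with a member (4.76%, against 1.21% of all matched genes). It had 1450 and 1520 FPKM in TDG KO libraries, against 1410 and 1500 FPKM in WT libraries (0.03, limma adjusted p = 0.805). Tgfbr3, a TGF-beta co-receptor, was the 1 gene with a member among 123 signalling genes (0.813%, near the 1.21% of all matched genes). It had 1.07 and 1.01 FPKM in TDG KO libraries, against 1.9 and 1.48 FPKM in WT libraries (-0.39, limma adjusted p = 0.0282). The call was lost without WT replicate 1 (limma adjusted p = 0.0876), without TDG KO replicate 1 (0.0817) or 2 (0.105), and with no filter on FPKM (0.0792).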

How the data were processed

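Per the submitters' processing notes, Bowtie2 2.2.9, MACS2 2.2.1, deepTools, TopHat2 2.1.1, Cufflinks 2.2.1 and Cuffdiff were used with mm10, with no step assigned to each. The deposited CTCF lists hold 1 score per peak, with no definition in the labels, and scores were used only as percentiles within a list. The authors' expression table holds FPKM per library, deposited log2 fold changes and q-values, and was used for FPKM. Its deposited p-values were not used. Among genes named by rule and called by limma, the authors' q-values were not significant for Ctcf (0.251), Zfp704 (0.0649), Rps19 (0.0853) and Rpl19 (0.14). For the other called genes named by rule they were significant. The absolute depth of the RNA libraries is unknown. From the lowest values, depth relative to WT replicate 1 was 0.99 and 0.93 in TDG KO replicates 1 and 2 and 0.859 in WT replicate 2.

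Genes with a mean of at least 1 FPKM (12035) were tested on log2(FPKM + 1) with limma 3.58.1 in R 4.3.3 (limma-trend, TDG KO minus WT, 2 against 2, Benjamini-Hochberg over all tested genes, threshold 0.05). An exact permutation test of single genes cannot go below p = 0.33 here. On simulated data with 12035 genes, of which 200 were changed, 36% of changes of 0.5 and 76% of changes of 1 (log2) were recovered, with 3 false calls. The measured libraries gave a call for 54.0% of the tested genes, a far larger share. The simulation is therefore no estimate of recovery or false calls in the measured comparison. Since the locus column gives overlapping genes 1 span, genes were linked to members through their own RefSeq ends, which differs from the plan. No CTCF library was tested between groups. Members, gene lists and the 4 chromosomes set apart were chosen with earlier results of these data known. Genes named were Tdg, Ctcf, the 6 members with the highest lower percentile, the 6 called genes with the largest rise and the 6 with the largest fall (mean of at least 5 FPKM, groups apart), up to 3 genes of each list with a member, genes with several members, and the regions nearest to 1 kb. Pol II, IgG and input libraries were not analysed here.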

Additional observations from a re-analysis of the deposited data

How the results depend on the processing

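The count of 493 KO-only regions at gene ends became 102 with the strongest peaks of each list, 302 at 500 bp, 823 at 2 kb, and 211 with ends of genes of at least 1 FPKM. Leaving out 1 list gave 659 to 865. The share of 8.38% became 5.13% at 500 bp, 14.0% at 2 kb, 3.59% with expressed genes' ends and 11.5% with RefSeq ends, an alternative chosen after seeing the data, and leaving out 1 list gave 7.91 to 9.66%. Of genes at members, the 64 higher became 27 without chromosomes 6, 11, X and Y (of 132, 20.5%). They became 20 with the strongest peaks (of 35 tested, 57.1%) and 34 at 500 bp (of 112, 30.4%). Over all tested genes 24.4% were called higher and 29.5% lower, and outside those 4 chromosomes 19.7% were called higher. Of the 35 genes, 20 lay on chromosome 11, where 65.6% of all tested genes rose. The 47 lower became 4 with the strongest peaks (11.4%), 27 at 500 bp (24.1%), and 30 to 38 without 1 library (30 without WT replicate 1 and 31 without TDG KO replicate 2). The median change of 0.03 became 0.06 with upper-quartile scaling, -0.04 without those chromosomes, 0.4 with the strongest peaks and 0.04 to 0.05 without 1 library. The causes were not tested. Replicate numbers did not pair the libraries (correlation of deviations -0.0157), and a replicate block gave 65 higher, 46 lower and a median of 0.03. Of 221 values of named genes under alternatives, 199 kept their sign and side of the threshold, 16 lost the call and 1 gained it. The other 5 changed sign near 0 without a call, namely Zfp809 (-0.03) with upper-quartile scaling (0.0), without WT replicate 1 (0.09) and without TDG KO replicate 2 (0.08; range without 1 library -0.15 to 0.09), and Pkm (0.03) without WT replicate 1 (-0.02) and without TDG KO replicate 2 (-0.01; range -0.02 to 0.07).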
